A study of Mus musculus with 96 samples.

Results

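Liver of Flox mice was compared with itself at opposite phases of a 12 h cycle. The 16 libraries of circadian times CT2, CT4, CT14, CT16, CT26, CT28, CT38 and CT40 (phase 2 to 4 h) were set against the 16 libraries of CT8, CT10, CT20, CT22, CT32, CT34, CT44 and CT46 (phase 8 to 10 h), chosen by the circadian time in their labels. They are 32 of the 96 libraries of the series. Flox mice were C57BL/6J males aged 3 to 4 months whose 2 Rbbp5 alleles carry loxP sites and which lack the Alb-Cre transgene, so that the gene stays intact. The other genotype, LKO, carries the same alleles with Alb-Cre, a Cre recombinase driven by the albumin promoter in hepatocytes, and it serves here only to test whether a phase difference depends on genotype. Mice were kept in light and dark for 2 weeks, moved to constant darkness for 24 h, and killed every 2 h over 48 h with free access to food, 2 mice to a time point. Whole liver mRNA was sequenced, and each value is a transcript level in FPKM, fragments scaled by transcript length and by mapped fragments.

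Many liver transcripts follow a 24 h clock built from a feedback loop of CLOCK and BMAL1 with the period and cryptochrome repressors. A smaller group runs through 2 cycles in a day, and chaperone genes of the endoplasmic reticulum (ER) are the best known members. The ER folds secreted and membrane proteins, and when unfolded protein builds up, the sensors ATF6, IRE1 and PERK raise its chaperones, its degradation machinery and its export route. Cytosolic chaperones are raised in a parallel manner by heat shock factors. RBBP5 is a core subunit of the complexes that methylate lysine 4 of histone H3.

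The 2 phases were balanced over the day. A 24 h sine wave therefore cancels in the comparison, and a 12 h wave that peaks at 3 or 9 h gives a difference of 1.73 times its log2 amplitude, whereas one that peaks at 0 or 6 h gives none. A 24 h wave of uneven shape also leaves a 12 h component, and the comparison does not separate it from a 12 h rhythm. Differences below are in log2(FPKM + 1), phase 2 to 4 h minus phase 8 to 10 h, with the standard error (SE) of a limma fit and Benjamini-Hochberg adjusted p over 9348 tested entries. Folds on this scale understate the change of low genes.

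Rbbp5 had a mean of 3.34 ± 0.563 FPKM (SD, n = 16) at phase 2 to 4 h and 3.10 ± 0.497 FPKM (SD, n = 16) at phase 8 to 10 h. The ranges, 2.43 to 4.27 and 2.35 to 3.78 FPKM, overlapped, and the difference of 0.08 (SE 0.07) did not pass the test (adjusted p = 0.401) and changed sign under median-ratio and quantile scaling. The label of the tissue was checked with albumin, which had a median of 13568 FPKM at phase 2 to 4 h and 13614 FPKM at phase 8 to 10 h. Rn45s, the precursor of ribosomal RNA, ranged from 817 to 5409 FPKM in the first group and from 819 to 9027 FPKM in the second, where the 4 libraries of CT44 and CT46 had a median of 6165 FPKM. Total FPKM ran from 328036 to 462390 and from 341503 to 498760. The depth of single libraries is not given, but steps between low values placed relative depth, against a mean of 1 over the 48 Flox libraries, at 0.897 to 1.24 (median 1.02) in the first group and 0.776 to 1.16 (median 0.93) in the second.

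Of the 9348 entries, 918 were higher at phase 2 to 4 h, a share of 9.82%, and 125 were lower, a share of 1.34%. Most changes were small: 60 of the higher entries passed 1.5-fold, and 14 of the lower entries fell below the inverse of it. The split depended on scaling. Higher entries made up 88.0% of those past the threshold with unscaled values, 45.5% with median-ratio scaling and 55.4% with quantile normalization, and the median difference of all entries was 0.07, -0.02 and -0.00 in that order. Past the threshold in the same direction under all 3 scalings were 293 higher entries (3.13%) and 122 lower entries (1.31%). The 2 groups overlapped for every tested entry. Of the 918 higher entries 673, and of the 125 lower entries 64, had 1 sign in all 4 cycles, against 23.4% of all entries. These entries were called on the same 4 cycles, so a raised share is set in part by the calling.

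The counts also rested on which libraries were kept. Without the Flox libraries of CT44 and CT46, a choice made after seeing the data, 373 entries were higher and 94 lower. Rn45s ranged from 1259 FPKM (CT44A) to 9027 FPKM in these libraries. It was also high in libraries that were kept, such as CT28A (5409 FPKM) and CT34B (5335 FPKM). Leaving out 1 of the 4 cycles gave between 106 and 2292 higher entries. A linear trend over circadian time beside the day term left 0 higher and 2 lower entries, and 96 of 99 named genes past the threshold lost their call. It also raised the median SE from 0.085 to 0.161, so lost calls there do not separate a lost difference from lost precision. The trend in place of the day term left 296 higher and 70 lower entries. With no covariates, 297 were higher and 15 lower, and 50 of the 99 lost it. For the gene groups below, counts are given with median-ratio scaling, without CT44 and CT46 or without the last cycle, CT38 to CT46. The trend beside the day term ends nearly all of their calls. Of all 9348 entries, 326 were higher with median-ratio scaling, 396 with quantile normalization, 373 without CT44 and CT46 and 120 without the last cycle. The list counts in each setting stand beside these lower totals. With log2 Rn45s added as a covariate, 569 entries were higher and 89 lower. Beyond this fit the part of Rn45s in the result was not tested, and that of relative depth was not tested.

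The clearest group was the ER chaperones. Of 25 tested, 16 were higher at phase 2 to 4 h and none was lower, with a median difference of 0.36 beside 0.07 for all entries. The count was 11 after median-ratio scaling, 15 after quantile normalization, 9 without CT44 and CT46 and 5 without the last cycle. Creld2, Hyou1, Hspa5 and Manf were among the 12 leading higher genes.

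Creld2, an ER protein that assists disulphide-bonded folding (chr15:88819646-88826683, plus strand, mm10), had the largest difference of the leading higher genes. It measured 8.24 to 75.2 FPKM (median 32.5) at phase 2 to 4 h and 4.28 to 21.1 FPKM (median 8.96) at phase 8 to 10 h. The groups overlapped: 1 mouse each of CT4, CT16 and CT38 and both mice of CT28 were low in the first group, and CT22 and CT44 held the highest values of the second. The difference was 1.44 (SE 0.21, adjusted p = 0.000143), a 2.71-fold increase, and it was 2.06, 1.03, 1.32 and 1.36 in the 4 successive cycles. Time point means reached 41.0 FPKM at CT2, 33.7 at CT14, 54.4 at CT26 and 35.6 at CT40, and fell to 4.77 at CT8, 12.9 at CT20, 7.56 at CT34 and 9.14 at CT46.

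**Figure D1:**
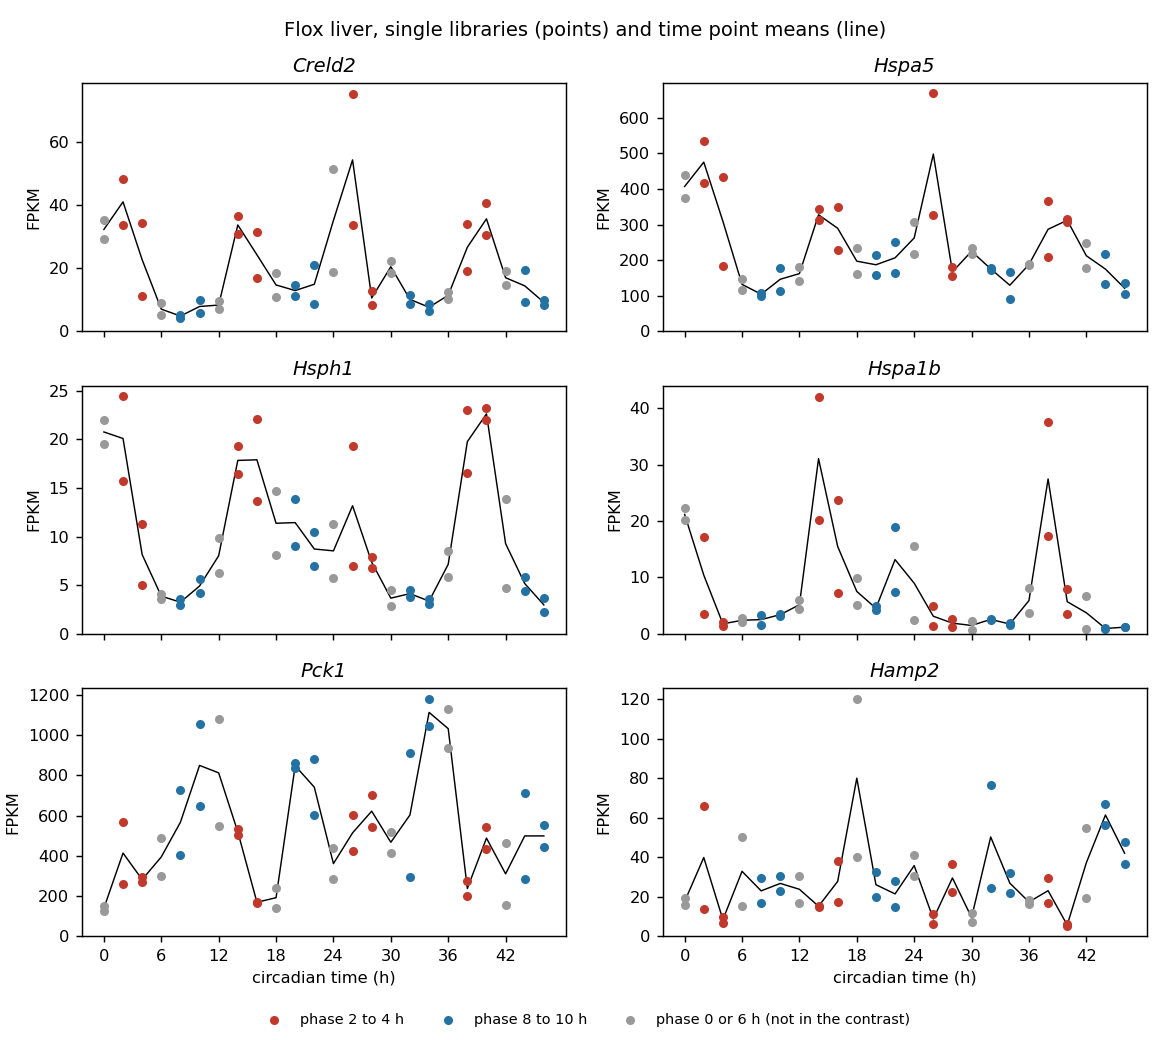
FPKM (vertical axis) of 6 genes in single Flox libraries against circadian time in hours (horizontal axis), with the line joining time point means. Red points are phase 2 to 4 h, blue points phase 8 to 10 h and grey points the times outside the comparison. Creld2, Hspa5 and Hsph1 are on average higher at phase 2 to 4 h than at phase 8 to 10 h in each 12 h cycle. Hspa1b has its highest values at CT14 and CT38, and Pck1 is high at CT10, CT20 and CT34.

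Hspa5 encodes BiP, the main ER member of the HSP70 family (chr2:34771970-34777547, plus strand). Its level was 154 to 669 FPKM (median 322) at phase 2 to 4 h and 90.8 to 250.2 FPKM (median 161) at phase 8 to 10 h, a difference of 1.05 (SE 0.17, adjusted p = 0.000253). The same mice of CT4, CT16, CT28 and CT38 were low in the first group and lay within the range of the second. Hyou1, an ER chaperone that exchanges nucleotide on BiP (chr9:44379490-44392369, plus strand), measured 19.9 to 79.0 FPKM (median 44.6) against 12.5 to 31.7 FPKM (median 18.1), a difference of 1.14 (SE 0.16, adjusted p = 6.81e-05). Its 4 cycles gave 1.73, 0.74, 0.95 and 1.15, so the first cycle was the largest, as for Creld2 and Hspa5. Manf, a secreted ER stress protein, measured 14.8 to 83.0 FPKM (median 48.3) against 9.70 to 49.4 FPKM (median 24.2), with a difference of 0.85 (SE 0.19, adjusted p = 0.0045).

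Among the other 12 ER chaperones past the threshold, Dnajb9 (0.77) and Dnajc3 (0.55) encode J-domain partners of BiP, and Pdia4 (0.68) is a protein disulphide isomerase. Sdf2l1 (0.65) is part of the BiP complex, Hsp90b1 (0.51) is the ER form of HSP90, and Canx (0.41) is the lectin chaperone calnexin. The other lectin chaperone, Calr (0.12), did not pass, nor did Pdia6 (0.27), P4hb (0.19), Ppib (-0.05) or Fkbp2 (-0.24).

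The ER stress element, bound by NF-Y and ATF6, is read in upstream sequences as CCAAT, 9 bases and CCACG. It was searched for in RefSeq windows of 300 bases (250 before to 50 after a transcript start, GRCm38.p6) on both strands. This element was added to the motifs after other results were known. It was found in 7 of the 25 windows that 19 genes of the ER chaperone list have, 1 or more a gene (28%), in 8 of the 874 windows of the higher entries (0.915%), in 0 of the 132 windows of the lower entries, and in 15 of 9140 windows of all tested entries (0.164%), or 0.119% of all RefSeq windows. The 250 bases before the starts of the genes below show it in capitals, in Hspa5 in the direction written and in Creld2 as the reverse complement. Hspa5 (chr2:34771840-34772089, plus strand) and Creld2 (chr15:88819396-88819645, plus strand) start at the RefSeq positions that follow these windows, which for Hspa5 lies inside the gene as GENCODE draws it.
Hspa5: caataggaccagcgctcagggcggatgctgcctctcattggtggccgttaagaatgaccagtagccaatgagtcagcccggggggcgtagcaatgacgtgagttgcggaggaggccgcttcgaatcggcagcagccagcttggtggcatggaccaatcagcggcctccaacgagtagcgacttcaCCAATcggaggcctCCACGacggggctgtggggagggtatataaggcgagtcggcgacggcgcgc
Creld2: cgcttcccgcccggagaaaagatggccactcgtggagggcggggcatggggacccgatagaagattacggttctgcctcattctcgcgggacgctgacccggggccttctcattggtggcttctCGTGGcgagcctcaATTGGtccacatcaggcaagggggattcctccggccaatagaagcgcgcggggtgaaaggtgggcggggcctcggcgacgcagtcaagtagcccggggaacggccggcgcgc

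The element also stood in the windows of other higher genes, with 5 bases on each side shown here to compare them. Canx (chr11:50325795-50325823, minus strand), Dnajc3 (chr14:118937822-118937850, plus strand) and Syvn1 (chr19:6046527-6046555, plus strand) hold it once and Hsp90b1 (minus strand) holds it 2 times, of which the copy at chr10:86705633-86705661 is shown.
Canx: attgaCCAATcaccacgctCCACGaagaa
Dnajc3: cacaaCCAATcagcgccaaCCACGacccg
Syvn1: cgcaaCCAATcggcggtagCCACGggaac
Hsp90b1: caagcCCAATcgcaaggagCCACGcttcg
Alg12, an N-glycosylation gene that was also higher (0.41), lies head to head with Creld2, and the 1 element at chr15:88819515-88819543 falls in both windows. Acnat2, which was also higher and is in none of the ER lists, holds it. Of the genes that did not pass, 7 hold it, namely Calr, Pdia6, Derl3, Acacb, Hnrnpa3, Pan2 and Xlr3a. Genes with no window and other motifs are not shown, and a match is a description of the letters in the window.

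Degradation of ER proteins moved in the same direction in part. Of 19 tested genes, 7 were higher and none lower (median 0.15). After median-ratio scaling 4 were higher and 1 lower, without CT44 and CT46 3 were higher, and without the last cycle 2. Syvn1 encodes the ubiquitin ligase HRD1, which marks misfolded ER proteins, and measured 14.1 to 97.0 FPKM (median 40.8) against 13.3 to 44.5 FPKM (median 20.5), with a difference of 0.78 (SE 0.21, adjusted p = 0.0165). Its adaptor Sel1l differed by 0.51, the mannosidase-like Edem1 by 0.51 and the ubiquitin-conjugating Ube2g2 by 0.52, each past the threshold. Herpud1 (0.04), Derl1 (0.13) and Vcp (0.14) did not pass.

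Of 14 sensors and factors of the unfolded protein response, 3 were higher and none lower, with 2 left after median-ratio scaling or without CT44 and CT46 and 1 without the last cycle. Atf6b, a relative of Atf6 that is cut from the ER membrane in the same way, measured 4.54 to 7.39 FPKM (median 5.51) against 2.66 to 5.71 FPKM (median 3.51), a difference of 0.51 (SE 0.06, adjusted p = 9.92e-06) that was between 0.26 and 0.92 in every cycle. Atf6 itself measured 3.88 to 10.6 FPKM (median 7.27) against 2.04 to 8.38 FPKM (median 5.53), a difference of 0.38 (SE 0.11, adjusted p = 0.0257). The last cycle alone differed by 1.07, and the other 3 by 0.08 to 0.20. Wfs1, an ER membrane protein, differed by 0.53 (SE 0.10, adjusted p = 0.00153). Xbp1, whose mRNA IRE1 splices, measured 59.3 to 213 FPKM (median 115) against 41.7 to 176 FPKM (median 92.7). Its difference of 0.24 (SE 0.15) did not pass (adjusted p = 0.251), nor did that of the PERK gene Eif2ak3 (0.30, adjusted p = 0.054). Splice forms of Xbp1 are not told apart in a gene-level value. The integrated stress response, the branch that lowers translation, had 1 higher and 1 lower gene of 12, beside 9.82% and 1.34% of all entries. These were Ddit4 at 0.42 and Trib3 at -0.47. After median-ratio scaling no gene of this list was higher and 3 were lower.

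Transport from the ER to the Golgi gave the highest count. Of 39 tested genes, 24 were higher and none lower (median 0.27), and the count was 10 after median-ratio scaling, 10 without CT44 and CT46 and 7 without the last cycle. Tmed3, a cargo receptor of the p24 family (chr9:89699206-89705068, minus strand), measured 5.58 to 20.7 FPKM (median 15.2) against 4.56 to 17.9 FPKM (median 7.62), a difference of 0.80 (SE 0.15, adjusted p = 0.00113). The COPII coat subunits Sec24d (0.74, adjusted p = 0.000328) and Sec23b (0.63, adjusted p = 0.000199) and the vesicle tether Uso1 (0.48, adjusted p = 0.000178) were also higher, while the coat subunits Sec13 (0.09) and Cope (-0.07) did not pass. Of 23 translocation and targeting genes 8 were higher, among them the receptor subunit Srprb (0.48) and the channel subunit Sec61a1 (0.29), with 1 left after median-ratio scaling, 4 without CT44 and CT46 and 1 without the last cycle.

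N-glycosylation, the addition of sugar chains to proteins in the ER, had 15 higher genes of 39 and none lower (median 0.16, 8 after median-ratio scaling, 7 without CT44 and CT46, 4 without the last cycle). Mgat2, a Golgi enzyme of chain branching, measured 5.77 to 20.8 FPKM (median 14.5) against 2.64 to 13.3 FPKM (median 9.07), a difference of 0.76 (SE 0.14, adjusted p = 0.00118). Gfpt1, the entry enzyme of amino sugar synthesis, differed by 0.73 (adjusted p = 0.00019), Gmppb, which makes GDP-mannose, by 0.65 (adjusted p = 0.00121), and the glucosidase gene Mogs by 0.50 (adjusted p = 0.000425). The dolichol genes Dpm1, Dpm2 and Dpm3 were at -0.07, -0.19 and -0.20 and did not pass.

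**Figure D2:**
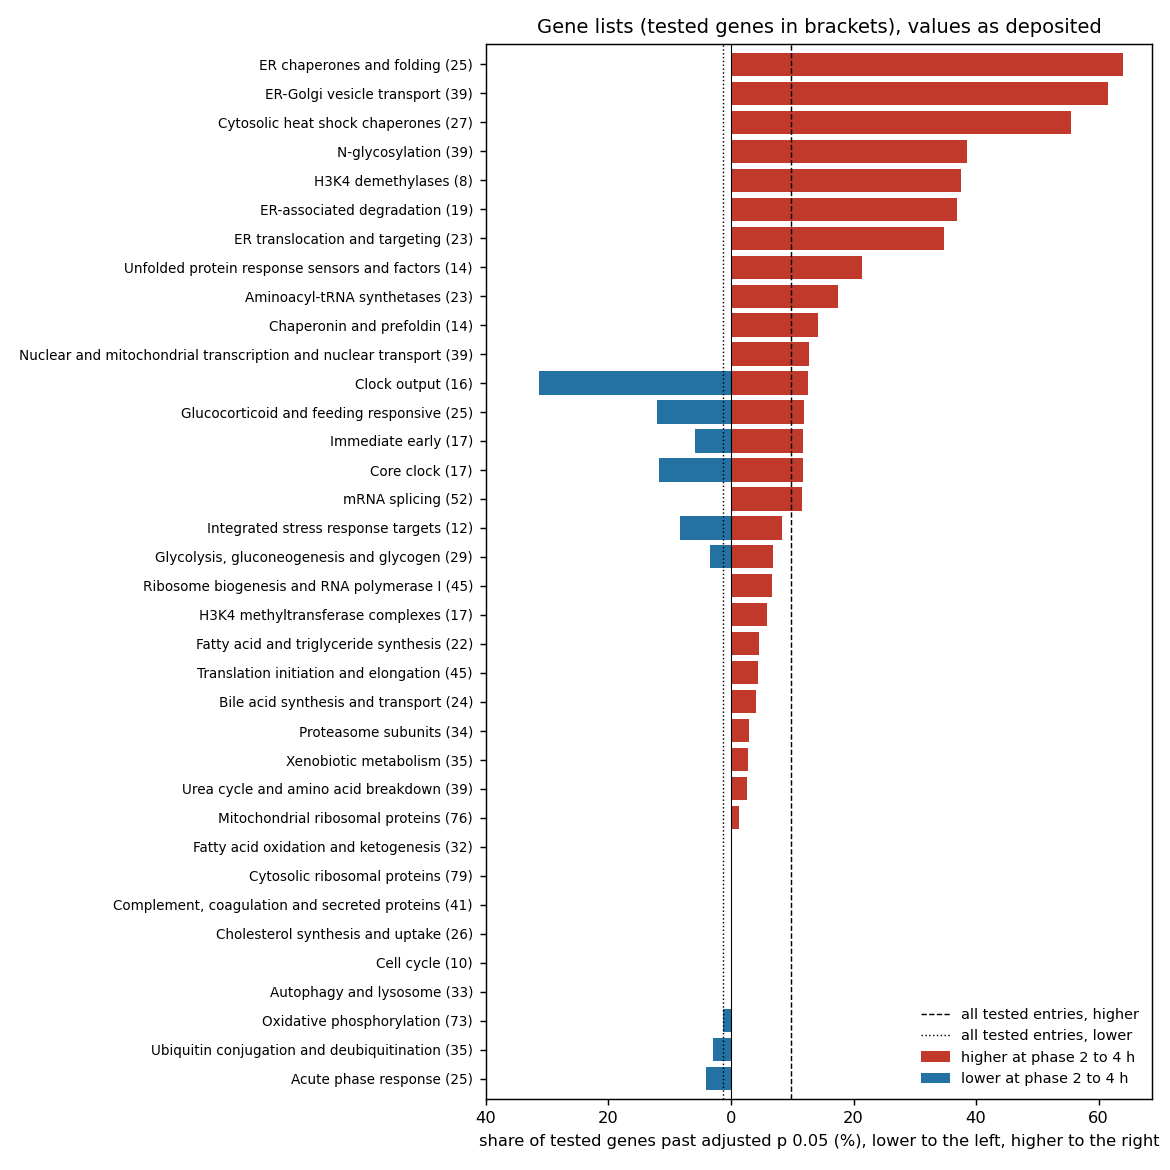
Share of tested genes (horizontal axis, %) past adjusted p 0.05 in each gene list (vertical axis, tested genes in brackets) in values as deposited. Red bars to the right are higher and blue bars to the left lower at phase 2 to 4 h, and the dashed and dotted lines mark 9.82% and 1.34% of all tested entries. ER chaperones (16 of 25), ER to Golgi transport (24 of 39) and heat shock chaperones (15 of 27) have the longest bars.

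Cytosolic heat shock chaperones were the other large group, with 15 of 27 higher and none lower (median 0.35). The count was 11 after median-ratio scaling, 8 without CT44 and CT46 and 4 without the last cycle. Hsph1, an HSP110 that helps HSP70 release its client (chr5:149614287-149636376, minus strand), measured 5.0 to 24.4 FPKM (median 16.5) against 2.25 to 13.9 FPKM (median 4.30). The difference was 1.38 (SE 0.17, adjusted p = 7.82e-06), and the samples of CT20 and CT22 were the high ones of the second group. Time point means were 20.1 FPKM at CT2, 17.8 at CT14, 13.2 at CT26 and 22.6 at CT40, against 3.23 at CT8 and 2.96 at CT46. Hsp90aa1, the stress-responsive cytosolic HSP90 (chr12:110690605-110702728, minus strand), measured 34.7 to 99.0 FPKM (median 57.6) against 14 to 65.6 FPKM (median 30.5), a difference of 1.01 (SE 0.12, adjusted p = 7.82e-06).

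The HSP70 genes were less even over the cycles. Hspa8, the constitutive HSP70 (chr9:40800984-40810087, plus strand), measured 179 to 825 FPKM (median 575) against 87.4 to 517 FPKM (median 271), a difference of 0.99 (SE 0.21, adjusted p = 0.00364) with 0.53, 0.99, 0.36 and 2.07 in the 4 cycles. Hspa1b, the inducible HSP70 (chr17:34956436-34959238, minus strand), measured 1.17 to 42 FPKM (median 6.03) against 0.80 to 18.9 FPKM (median 2.51). Its difference was 1.10 (SE 0.32, adjusted p = 0.0274) with 0.37, 1.30, 0.05 and 2.68 in the 4 cycles, so it came from CT14 to CT22 and CT38 to CT46. Hspa1a (0.80) is nearly identical in sequence to Hspa1b, and how the authors split reads between them is not given, so both are uncertain. The co-chaperones Stip1 (0.65, adjusted p = 7.88e-06), which links HSP70 to HSP90, and Dnaja1 (0.60, adjusted p = 0.00019) were higher. Hspd1 (0.15) and Hspe1 (-0.06) of mitochondria, Dnajb1 (0.35) and the factor Hsf1 itself (0.04) did not pass.

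The motif GAANNTTC was taken here as a short form of the heat shock element, and a match does not show binding. It was in 14 of the 27 windows of 20 genes of the heat shock list (51.9%), in 5.96% of the windows of all tested entries, in 6.29% of those of the higher entries and in 3.03% of those of the lower ones. It is shown in capitals in the 250 bases before the start of Hspa1b (chr17:34959239-34959488, minus strand), and in short stretches of higher genes for comparison, namely Dnaja1 (chr4:40722339-40722356, plus strand), Fkbp4 (chr6:128438795-128438812, minus strand) and Hsph1 (chr5:149636283-149636300, minus strand). The Hsph1 stretch lies after its start. The element also stands in the windows of Dnajb6, Hspb1, Hspb8, Hspd1 and Hspe1, which did not pass.
Hspa1b: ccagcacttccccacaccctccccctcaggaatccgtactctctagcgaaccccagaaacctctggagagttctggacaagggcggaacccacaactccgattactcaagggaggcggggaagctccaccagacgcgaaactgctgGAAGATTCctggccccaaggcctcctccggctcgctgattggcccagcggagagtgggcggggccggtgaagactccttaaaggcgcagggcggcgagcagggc
Dnaja1: ctctaGAAAATTCtacga
Fkbp4: ctctaGAAAGTTCtccgc
Hsph1: ttctgGAAAGTTCtcctc
The CCAAT box was in 42.6% of the windows of higher entries, 34.8% of lower ones and 37.9% of all tested ones, and the E-box CACGTG in 9.15%, 11.4% and 10.4%.

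Outside these lists, the linker histone gene Hist1h1c (chr13:23738808-23740367, plus strand) measured 17.4 to 61.3 FPKM (median 45.4) against 5.99 to 51.2 FPKM (median 17.2), a difference of 1.27 (SE 0.21, adjusted p = 0.000374). Sntb1, a syntrophin of the dystrophin complex, measured 1.22 to 17.1 FPKM (median 7.65) against 0.305 to 11.8 FPKM (median 2.96), a difference of 1.01 (SE 0.30, adjusted p = 0.0301), with 2.02 in the last cycle alone. Actg1, cytoplasmic gamma actin, differed by 0.86 (SE 0.20, adjusted p = 0.00666). Cyp7a1, the rate-limiting enzyme of bile acid synthesis, differed by 0.77 (adjusted p = 0.0109). Of 8 genes of H3K4 demethylases and their partners, 3 were higher, Rcor1 (0.49), Kdm1b (0.27) and Kdm2b (0.21). Of 17 methyltransferase complex genes 1 was higher, Men1 (0.17). Both counts stand beside 9.82% of all tested entries. None of these H3K4 genes passed after median-ratio scaling or without CT44 and CT46.

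Among the genes that were low at phase 2 to 4 h, Pck1, the gluconeogenic enzyme PEPCK (chr2:173153048-173159273, plus strand), measured 166 to 702 FPKM (median 429) against 286 to 1183 FPKM (median 720), a difference of -0.84 (SE 0.22, adjusted p = 0.0154). The 4 cycles gave -1.03, -1.41, -0.44 and -0.49, and it did not pass without cycle 1 (adjusted p = 0.158) or cycle 2 (0.0758). Hamp2, a relative of the iron hormone hepcidin (chr7:30922372-30924681, minus strand), measured 4.81 to 65.6 FPKM (median 15.1) against 14.8 to 76.2 FPKM (median 29.8), a difference of -0.97 (SE 0.30, adjusted p = 0.0345) with -2.07 in the last cycle. Hamp2 is similar in sequence to Hamp, so its reads may be shared. Slc8b1, a mitochondrial sodium-calcium exchanger, measured 4.12 to 16.5 FPKM (median 6.16) against 6.65 to 18 FPKM (median 12.8), a difference of -0.69 (SE 0.12, adjusted p = 0.000686).

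The other leading low genes were Csrp3 (-0.60), a muscle LIM protein, Inca1 (-0.59), Hdc (-0.56), which makes histamine, Tcp11l2 (-0.52), Sertad1 (-0.46), Ypel3 (-0.45), Oxld1 (-0.45), Calcoco1 (-0.44) and Scand1 (-0.40). All 12 had a negative difference in each of the 4 cycles, as the naming rule asked. The acute phase gene Mt1, which binds metals, had -1.22 (SE 0.56) and did not pass (adjusted p = 0.139), and its 3 highest libraries, at 718, 1554 and 2559 FPKM, were of CT44 and CT46.

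**Figure D3:**
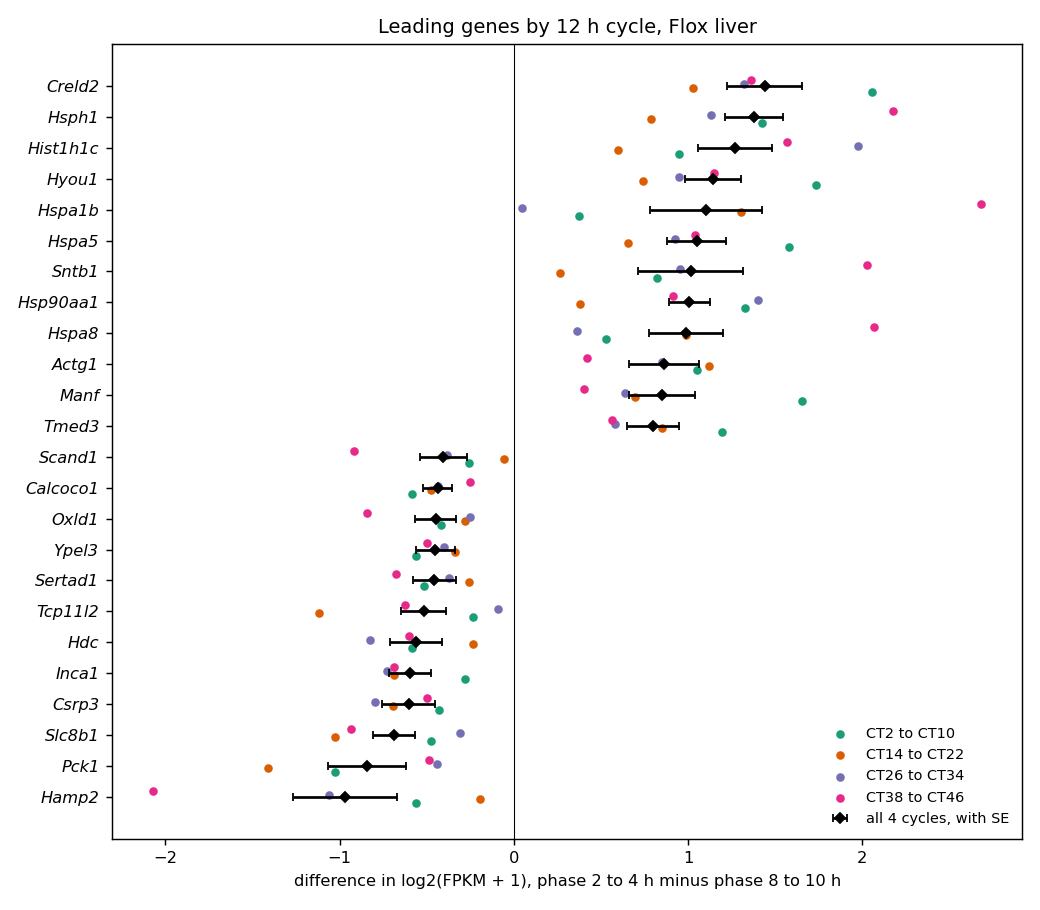
Difference in log2(FPKM + 1) (horizontal axis) of the 24 leading genes (vertical axis) for the 4 cycles of 12 h (coloured points) and over all cycles (black diamonds, with the SE of the fit). Hspa1b, Hspa8, Hsph1 and Sntb1 lie farthest to the right in the last cycle, CT38 to CT46, and Creld2, Hspa5, Hyou1 and Manf in the first, CT2 to CT10.

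Clock genes entered the comparison in a different manner. Dbp, a transcription factor of clock output, measured 0.273 to 30.9 FPKM (median 7.51) against 0.277 to 152 FPKM (median 43.0), a difference of -1.30 (SE 0.26, adjusted p = 0.00204). Its 4 cycles gave -5.05, 3.18, -6.18 and 2.85, so the sign followed the time of day. Of 17 core clock genes, Arntl (0.64) and Clock (0.42) were higher and Per1 (-0.52) and Ciart (-0.75) lower. Of 16 clock output genes 2 were higher, including Nfil3 (0.68), and 5 lower, including Usp2 (-1.01). Without CT44 and CT46, 1 core clock gene was higher and 2 lower, and 1 output gene was higher and 5 lower. Arntl gave 2.35, -1.17, 2.18 and -0.80 in the 4 cycles, which is likewise a change of sign between day and night. For such genes a value over all 4 cycles does not show 2 peaks a day.

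Large groups of housekeeping genes gave almost no calls in the phase comparison. None of 79 cytosolic ribosomal protein genes passed (median -0.14), and 1 of 73 oxidative phosphorylation genes was lower, Ndufa1 (-0.36, median of the list -0.22). Of these 73, 30 passed the test for a 12 h wave described below, which passed for 19.7% of all entries, and 32 had 1 sign in all 4 cycles. Of 34 proteasome genes 1 was higher (median 0.01), and none of 26 cholesterol synthesis, 32 fatty acid oxidation, 33 autophagy or 41 complement and secreted protein genes passed. Cirbp (-0.21) and Rbm3 (0.04), which respond to cold, did not pass. No tested marker of another cell type passed. The 11 tested Kupffer cell markers were all above 0 (0.04 to 0.32, median 0.25), and the summed level of the 13 listed markers, none of them at 0 in any of these libraries, ranged from 118 to 250.4 FPKM (median 177) at phase 2 to 4 h and from 96.8 to 262 FPKM (median 140.3) at phase 8 to 10 h. Of 12 tested RNA precursor and small nucleolar RNA host genes none passed (median -0.20). The part of these markers in the result was not tested. In whole tissue, fewer cells of a type and less RNA per cell cannot be told apart.

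A fit of 12 h and 24 h waves to all 48 Flox libraries placed the phase differences in time. A 12 h component passed for 1837 entries (19.7%) and a 24 h component for 5285 (56.5%). Of the 1837, 1098 peaked within 1.5 h of 3 h and 198 within 1.5 h of 9 h, and 894 also passed in the phase comparison. Of the 918 higher entries 788 passed the 12 h fit and 483 the 24 h fit, and of the 125 lower entries 106 and 95. The fitted 12 h peak was 2.41 h for Hspa5, 2.45 h for Creld2, 2.42 h for Hsph1, 3.39 h for Hsp90aa1 and 9.98 h for Pck1. These fits share libraries with the comparison and are no separate evidence for it.

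**Figure D4:**
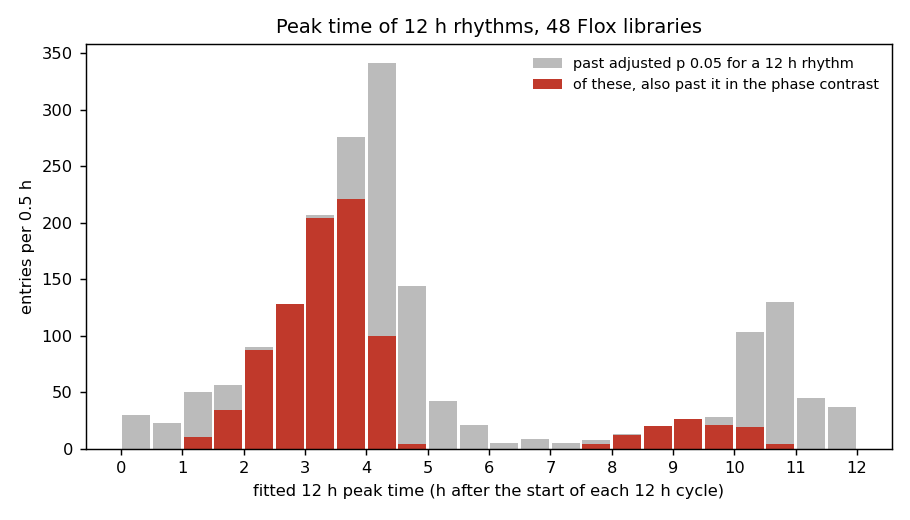
Number of entries per 0.5 h (vertical axis) by fitted 12 h peak time in hours (horizontal axis) for the 1837 entries past adjusted p 0.05 in the 48 Flox libraries. Grey bars are all of them and red bars those also past it in the phase comparison. The tallest bar, 341 entries, is at 4.0 to 4.5 h, and a lower group of bars stands at 10 to 11 h.

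The phase difference was tested for a change between night and day and between day 1 and day 2. It differed between subjective night (CT14 to CT22 and CT38 to CT46) and subjective day for 1647 entries (17.6%), of which 1087 were more positive and 560 more negative at night. This test has no 24 h term, so a 24 h wave can give differences of opposite sign at night and by day, depending on its peak time. Of the 918 higher entries 175 passed it, among them Hspa1b with 1.78 more at night (adjusted p = 0.041), while Creld2 (-0.49, adjusted p = 0.49), Hspa5 (-0.40) and Hsph1 (0.20) did not. Between day 2 and day 1 no entry passed in limma, under the same adjustment, and 939 entries had an unadjusted p under 0.05. The smallest such p-values were those of Trib1, Zfp180 and Fam35a.

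LKO liver at the same times gave a test of whether the Flox difference changed with genotype. Rbbp5 was 2.35 to 4.27 FPKM (median 3.34) in the 32 Flox libraries and 1.61 to 3.38 FPKM (median 2.06) in 24 of the LKO libraries. The 8 libraries labelled LKO of CT2, CT4, CT44 and CT46 measured 2.89 to 4.23 FPKM (median 3.74), within the range of Flox. By their median they go, as a group, against their label in this gene. Their range overlapped that of the other 24, whose highest value also lay within the range of Flox. The 4 libraries labelled LKO of CT44 and CT46 also had high levels of lung macrophage markers, whose part in the result was not tested beyond leaving them out. The summed level of the 7 measured of 13 lung macrophage and epithelium markers was 4895 to 9177 FPKM there, against 10.4 to 56.9 FPKM in the 32 Flox libraries. In the other 28 LKO libraries it was 12.9 to 926 FPKM, where the secretoglobin gene Scgb1c1 reached 886 FPKM in 1. Lyz2, the lysozyme of macrophages, measured 3667 to 6904 FPKM in the 4 libraries, at most 47.0 FPKM in Flox and at most 44.8 FPKM in the other LKO libraries, and Ear2 and Ccl6 were likewise at 468 FPKM or more in the 4 and at 5.79 FPKM or less in the others. None of these 7 but Scgb1c1 was at 0 in any of these libraries. With all libraries the phase difference differed for 2734 entries (29.2%), without the LKO libraries of CT44 and CT46 for 1149 (12.3%), and without all 8 for 2521 (27.0%). These counts leave LKO and Flox with unlike sets of times, although each genotype has its own 24 h terms. With the same times left out of both genotypes, chosen after seeing the data, the difference passed for 10 entries (0.107%) without CT44 and CT46 and for 0 (0%) without CT2, CT4, CT44 and CT46, in limma, where 2581 and 2059 entries had an unadjusted p under 0.05. The median SE was 0.145 and 0.173 in these fits, against 0.139 and 0.153 with the times left out of LKO alone.

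With the LKO libraries of CT44 and CT46 left out, the phase difference of Hspa5 was 0.82 smaller in LKO (-0.82, adjusted p = 0.0491), and with all 8 left out 1.14 smaller (-1.14, adjusted p = 0.0134). Under median-ratio scaling the first missed the threshold (adjusted p = 0.0817), as did both with the times left out of Flox too (-0.69, adjusted p = 0.144, and -0.86, adjusted p = 0.183). Hsph1 gave -1.05 (adjusted p = 0.0329) without CT44 and CT46 in LKO and -0.76 (adjusted p = 0.106) without them in both, and Hist1h1c -1.67 (adjusted p = 0.0203) and -1.55 (adjusted p = 0.0508). Of the other leading chaperones, Creld2 (-0.47), Hyou1 (-0.66), Manf (-0.30), Hsp90aa1 (-0.57), Hspa8 (-0.52) and Hspa1b (-0.48) did not pass without the LKO libraries of CT44 and CT46, nor with these times left out of both. With all 8 left out of LKO, Hyou1 (-1.02, adjusted p = 0.0148 in limma) and Hsp90aa1 (-0.97, adjusted p = 0.00652) passed, and Creld2, Manf, Hspa8 and Hspa1b did not. With every LKO library kept, Hsp90aa1 (-0.70, adjusted p = 0.00704) and Hspa8 (-0.68, adjusted p = 0.0418) passed. Without CT2, CT4, CT44 and CT46 in both genotypes none of these passed. All of these were chosen for a large Flox difference, which alone favours a smaller one in LKO. The 6 genes of smallest p with all libraries were Nck1 (-0.90), Trim25 (-0.62), Zbtb1 (-0.51), Slc35c1 (-0.52), Mgat2 (-1.25) and Slc35b4 (-0.41), with values given without the LKO libraries of CT44 and CT46, where each passed under all 3 scalings. With these times left out of both genotypes none of the 6 passed (adjusted p = 0.0508 to 0.092).

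**Figure D5:**
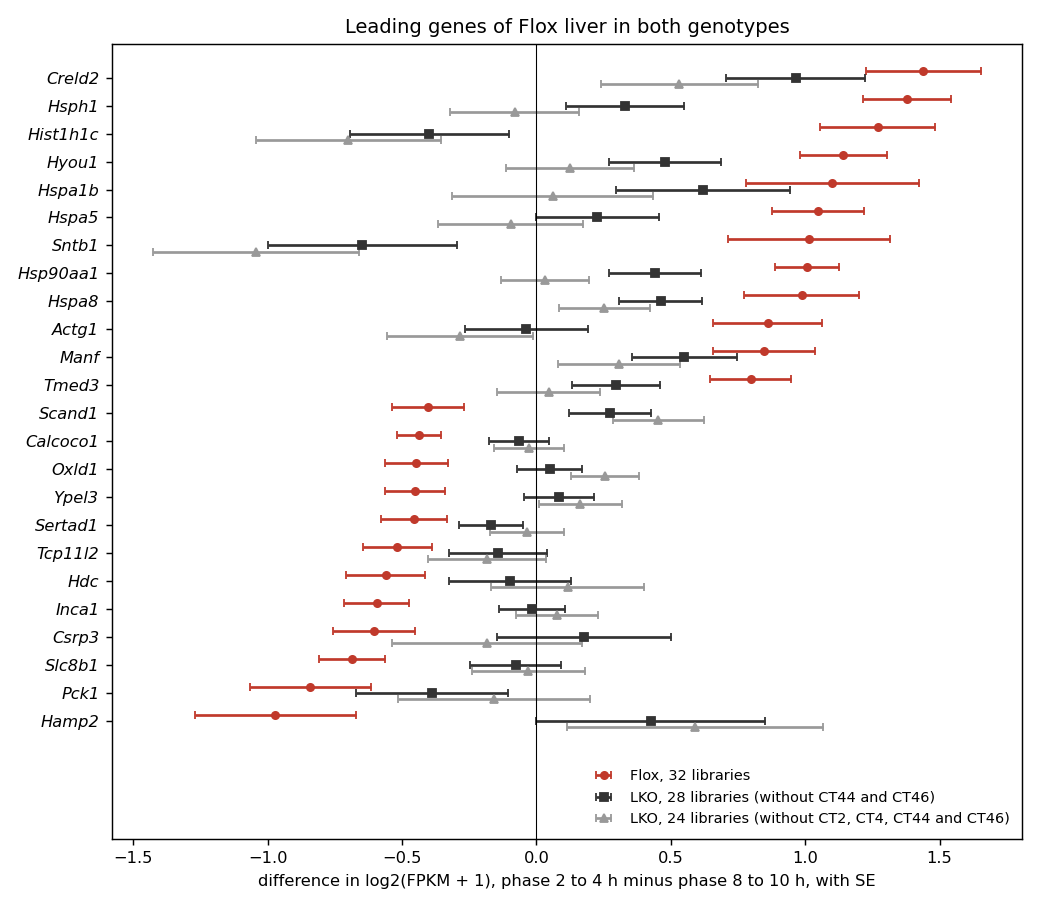
Phase difference in log2(FPKM + 1) with its SE (horizontal axis) of the 24 leading Flox genes (vertical axis) in 32 Flox libraries (red circles), in 28 LKO libraries without CT44 and CT46 (black squares) and in 24 LKO libraries without CT2, CT4, CT44 and CT46 (grey triangles). The Hspa5 point lies at 1.05 in Flox and at 0.23 and -0.10 in LKO. The genes were chosen for their Flox values, so that Flox points lie farther from 0 is set in part by the choice.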

How the data were processed

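The submitters' processing notes name FastQC, Trimmomatic, HISAT2 and Cufflinks with build mm10; their versions are not stated there. The deposited table holds FPKM per gene symbol for 96 libraries, per the file headers; the unit is also inferred from the values. Libraries were stranded mRNA, per the labels' protocols, but whether counting used strand is not given, nor whether repeated symbols (65) are separate models.

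FPKM of the Flox libraries was analysed as log2(FPKM + 1) in the 9348 of 13094 entries whose mean reached 1 FPKM over the 48 Flox libraries, with limma 3.58.1 in R 4.3.3 (trend and robust moderation). The fit held phase, 24 h cosine and sine, and day, with 27 residual degrees of freedom, and p-values were Benjamini-Hochberg adjusted over all entries at 0.05. Differences between days, between night and day and between genotypes were interaction terms, the last over 64 libraries. Named genes were Rbbp5, the 12 largest differences in each direction past the threshold with one sign in all 4 cycles and at least 2 FPKM, up to 4 genes of smallest p in each of 48 lists, clock genes and the leading genes of each interaction test. Alternatives changed pseudocount, filter, scaling, covariates, libraries and block. Genes were placed with GENCODE M21. Members and lists were chosen with earlier results of these data known.

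Replicates are single mice, 2 to a time point. The p-values of the phase fit measure the spread of libraries around its terms. That spread holds differences between mice and also differences between time points that the terms do not follow. A mean for each of the 24 time points leaves only the spread between mice of a time point, and gave 1818 higher and 446 lower entries. Letters A, B and C were checked for pairing: over 91 pairs of times the median correlation of A minus B deviations was 0.0129 (range -0.60 to 0.51, over 0.1 in 33), so the samples were treated as unpaired, and whether mice of 1 letter share a litter or day is not stated. No pair of libraries was identical. Fits were tested on simulated data first. Since no counts were given, no interval for counting error was computed, and read depth was judged only relatively, from low values (88.7% of 1126 library pairs gave steps within 0.03 log2 units of a common scale).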

Additional observations from a re-analysis of the deposited data

Results flagged for a closer look

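These results had an effect that differed between groups by a test of the difference itself. The phase difference changed between night and day for 1647 entries and, without the LKO libraries of CT44 and CT46, between LKO and Flox for 1149 entries. Groups of 16 were not tested for single samples that stand apart.

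Subjective night minus subjective day, the log2 phase difference was 1.78 for Hspa1b, -0.71 for Tcp11l2 and 0.77 for Trib1. For the clock genes it was -3.25 (Arntl), -0.91 (Clock), 2.26 (Per1), 2.13 (Per2), 3.03 (Per3), -1.48 (Cry1), 1.09 (Cry2), 2.59 (Nr1d1), 2.56 (Nr1d2), 2.55 (Bhlhe40) and 4.64 (Ciart). Beside Arntl, the genes of smallest p were Elovl3 (-6.09), Dbp (8.63), Tubb2b (-3.56), Chka (-4.60) and Tubb2a (-4.03), and Slc35b4 gave 0.39. This test has no 24 h term, so a 24 h wave without any 12 h rhythm can give such values.

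LKO minus Flox without the LKO libraries of CT44 and CT46, the log2 phase difference was -1.05 for Hsph1, -1.67 for Hist1h1c, -0.82 for Hspa5, -1.66 for Sntb1 and -0.64 for Atf6. Among low genes of Flox it was 0.61 for Slc8b1, 0.58 for Inca1, 0.53 for Ypel3, 0.50 for Oxld1 and 0.68 for Scand1. It was -0.44 for Clock and -0.55 for Cry1, and -0.90 for Nck1, -1.25 for Mgat2, -0.62 for Trim25, -0.51 for Zbtb1, -0.52 for Slc35c1, -0.41 for Slc35b4 and -0.50 for Fam35a. The LKO libraries of CT2 and CT4, with Rbbp5 at the Flox level, are included in these values. Under median-ratio scaling Hspa5, Clock and Cry1 missed the threshold, and under quantile normalization Clock and Cry1 did. With CT44 and CT46 left out of both genotypes, 10 entries passed. Hsph1, Hist1h1c, Hspa5, Sntb1, Atf6, the named low genes of Flox, Clock and Cry1 were not among them. Their adjusted p in limma ran from 0.0508 (Hist1h1c) to 0.144 (Hspa5). Nor were Nck1, Mgat2, Trim25, Zbtb1, Slc35c1 and Slc35b4 among them.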

How the results depend on the processing

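With values as deposited 918 entries were higher and 125 lower at phase 2 to 4 h. Higher and lower entries were 312 and 63 among entries averaging 5 FPKM or more, 326 and 390 with median-ratio scaling, 396 and 319 with quantile normalization, 297 and 15 with no covariates, 1818 and 446 on a mean for each of the 24 time points, and 569 higher with Rn45s as a covariate. They were 106 and 16 without cycle 1, 2292 and 493 without cycle 2, 245 and 32 without cycle 3, 120 and 44 without cycle 4, 105 and 29 on the first day alone and 306 and 26 on the second day alone. Leaving out single libraries or all of 1 replicate letter gave 26 to 1501 higher and 6 to 269 lower entries. Single libraries that moved a count by over 1.5 times were CT14A (1501 higher and 269 lower without it), CT20B (230 lower), CT28A (196 lower), CT34B (590 higher), CT38A (607 higher and 82 lower) and CT46A (594 higher). The lowest counts came without letter B (26 higher) or letter A (6 lower), which leave far fewer samples. A linear trend beside day gave 0 and 2 and raised the median SE from 0.085 to 0.161. The trend in place of day, chosen after seeing the data, gave 296 and 70. Also chosen after seeing the data, leaving out the Flox libraries of CT44 and CT46 gave 373 higher entries, and with median-ratio scaling as well 141 higher and 203 lower. The phase difference between LKO and Flox passed for 1149 entries without the LKO libraries of CT44 and CT46, against 2734. With times left out of both genotypes, chosen after seeing the data, it passed for 10 without CT44 and CT46 and for 0 without CT2, CT4, CT44 and CT46. Pseudocounts of 0.1 and 0.5, no filter, and a fit without trend and robust moderation kept the counts of the phase comparison within 1.5 times. The cause of these shifts was not tested.

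The sign of Rbbp5 reversed to -0.011 with median-ratio scaling, -0.033 with quantile normalization, -0.023 without cycle 3, -0.072 on the first day alone and -0.036 without CT44 and CT46 with median-ratio scaling. Under the added trend Xbp1 (-0.026), Eif2s1 (-0.054) and Wars (-0.023) reversed. The letters are not known to pair the mice, and with them as a replicate block 758 entries were higher and 101 lower. The 12 h and 24 h tests and those of night against day and of day 2 against day 1 kept their counts within 1.5 times in the alternatives run. Depth per library is not given, so what it limits was not tested.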
